A study of Mus musculus with 120 samples.

Results

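Eph receptors form a family of receptor tyrosine kinases that bind ephrins on the surface of a neighbouring cell, and both sides of the contact can signal. EphA receptors mostly bind lipid-anchored ephrin-A ligands, and EphB receptors mostly bind transmembrane ephrin-B ligands. In the developing brain they steer axons, largely by repulsion, and in the adult hippocampus they act on dendritic spines, glutamate receptors and synaptic plasticity.

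Described here are 10 Eph receptor genes, 7 of the A class (Epha3, Epha4, Epha5, Epha6, Epha7, Epha8, Epha10) and 3 of the B class (Ephb1, Ephb2, Ephb3), out of 21631 coding genes on the autosomes and X. For each, every called window that overlapped the gene body or lay within 10 kb of it was taken from the authors' list of 8961 windows. This gave 16 windows. The genes were chosen by family and with the differences and adjusted p-values of these same windows known, so those values are a description and carry no test of their own.

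The assay was whole-genome bisulfite sequencing of DNA, which reads 5-methylcytosine and 5-hydroxymethylcytosine alike, in hippocampus and blood of APP-nlgf and wild-type mice at postnatal weeks 3, 8 and 24. In APP-nlgf (App-NLGF) mice the endogenous App gene was edited to encode human amyloid-beta together with the Swedish, Iberian and Arctic mutations, so the altered protein comes from the App promoter and amyloid plaques form. Wild-type mice were the comparison at the same age and in the same tissue. There were 120 libraries in 12 groups of 10, with 5 of each sex in every group, and the labels name no strain. The labels do not say whether hippocampus and blood of the same number came from the same mouse.

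Each window is 1 kb long and carries 3 values of the authors, namely the methylation difference in percentage points, its p-value, and that p after adjustment. The difference is read as App-NLGF minus wild type only because the file names the comparison in that order, and all directions given would turn round with it. Neither methylation levels nor coverage nor single libraries were analysed here, so the depth is unknown and neither spread between mice nor tissue identity could be checked. The whole list ran from an absolute difference of 10.0006 points upward and up to an adjusted p of 0.09997. A gene without a window is therefore one with no window past both limits, not one shown to be alike in the genotypes.

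The sequences shown are those of the 3 Eph receptor promoters over which a window was called, all 3 of them lower in App-NLGF blood at week 8. Each is the RefSeq sequence of GRCm38.p6 from 250 bases before to 50 bases after the start site, 5′ to 3′ on the strand of the gene. The capitals mark CpG dinucleotides, the cytosines whose methylation such windows summarise. The 3 lie at chr1:77515039-77515338 (Epha4, minus strand), chr16:60605482-60605781 (Epha6, minus strand) and chr4:136835963-136836262 (Ephb2, minus strand).
Epha4: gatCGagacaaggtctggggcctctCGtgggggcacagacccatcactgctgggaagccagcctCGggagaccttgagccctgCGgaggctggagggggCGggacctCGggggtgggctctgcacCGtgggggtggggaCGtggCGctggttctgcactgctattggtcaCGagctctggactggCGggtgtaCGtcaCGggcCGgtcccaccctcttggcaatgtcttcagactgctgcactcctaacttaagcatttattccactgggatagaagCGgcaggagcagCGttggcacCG
Epha6: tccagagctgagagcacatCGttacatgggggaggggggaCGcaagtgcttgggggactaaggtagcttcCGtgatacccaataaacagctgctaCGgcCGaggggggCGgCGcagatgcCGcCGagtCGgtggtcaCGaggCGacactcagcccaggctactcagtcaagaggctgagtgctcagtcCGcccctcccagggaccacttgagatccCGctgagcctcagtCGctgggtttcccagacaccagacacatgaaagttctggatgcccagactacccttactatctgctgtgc
Ephb2: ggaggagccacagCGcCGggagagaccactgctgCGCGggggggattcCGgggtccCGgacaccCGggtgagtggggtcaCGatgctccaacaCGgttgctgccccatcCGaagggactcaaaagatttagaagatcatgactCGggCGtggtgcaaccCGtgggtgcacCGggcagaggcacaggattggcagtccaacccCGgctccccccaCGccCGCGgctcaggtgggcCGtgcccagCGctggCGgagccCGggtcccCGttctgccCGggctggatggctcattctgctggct

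These promoters hold 17 CpGs in Epha4, 15 in Epha6 and 24 in Ephb2, where the median of 32851 promoter sequences, noncoding genes included, is 7. Among coding promoters the median is 22 in those overlapped by a lower window in blood at week 8 and 12 in the others. The windows covered all 300 bases of the Epha4 and Epha6 sequences and 262 bases of the Ephb2 sequence.

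Of the 10 genes, 6 had a window in at least 1 of the 6 comparisons, where 26.7% of all coding genes and 51.3% of coding genes of at least 100 kb did. Epha8, Epha10 and Ephb3 are shorter than 100 kb and had none. Here and in each comparison below, the share from 100 kb is therefore a like background only for the other members. Epha6 had 8 windows, Epha4 had 3, Ephb1 had 2, and Epha3, Epha7 and Ephb2 had 1 each. Of the 16 windows 6 were higher and 10 lower in App-NLGF. Hippocampus and blood held 8 windows each, and all 8 blood windows came from week 8. No window lay at the same position in another comparison, as was so for all but 37 of the 8961 windows. None of the 16 lay within 10 kb of another coding gene.

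The median absolute difference of the 16 windows was 12.2 points, and that of all windows was 12.6 points. EphA genes held 13 windows, 4 higher and 9 lower, in 4 of 7 genes. EphB genes held 3 windows, 2 higher and 1 lower, in 2 of 3 genes.

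**Figure D1:**
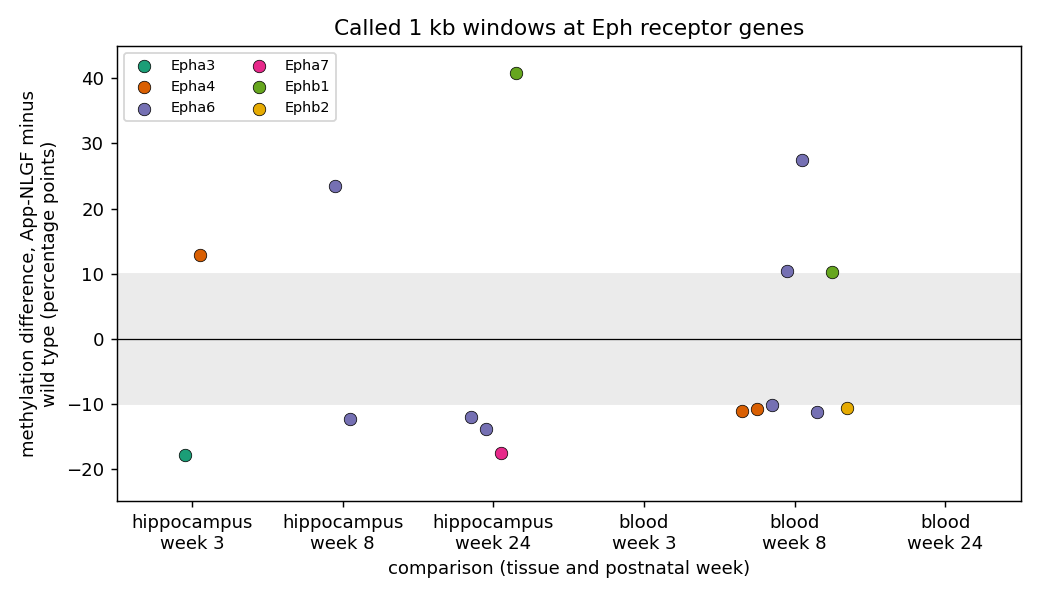
The authors' methylation difference of each called window at an Eph receptor gene (vertical axis, percentage points, App-NLGF minus wild type) in the 6 comparisons of tissue and week, 1 point per window, coloured by gene. The grey band spans the differences under 10 points that the list leaves out. The Ephb1 window of hippocampus at week 24 stands highest at 40.8 points, and blood at weeks 3 and 24 has no point.

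In hippocampus at week 3, 2 of the 10 genes had a window, with 2.6% of all coding genes and 9.39% of those of at least 100 kb as background. The authors' deposited table gives -17.8 points (adjusted p = 0.0572) inside Epha3, a receptor that takes part in topographic mapping of axons, at chr16:63711001-63712000. This window lies 153 kb downstream of the start site in a gene of 321 kb. At Epha4, a receptor that binds both ephrin classes and acts on dendritic spines of hippocampal neurons, the authors' deposited table gives 12.9 points (adjusted p = 0.0949) at chr1:77359001-77360000. That window lies 7.18 kb beyond the 3′ end of the gene. In absolute size the Epha3 window ranked 207 and the Epha4 window 629 among the 1024 windows of this list, in which 29.5% were higher.

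In hippocampus at week 8, Epha6 alone of the 10 had a window, with 1.74% of all coding genes and 7.66% of those of at least 100 kb as background. Epha6 encodes a receptor expressed in brain and linked in mice to learning and memory. Its 2 windows went opposite ways. The authors' deposited table gives 23.5 points (adjusted p = 0.0792) at chr16:59697001-59698000, and this window ranked 41 of 742 in absolute size. A lower window in the authors' deposited table stands at -12.3 points (adjusted p = 0.0498) at chr16:59838001-59839000. Both lie deep in the gene, 908 and 767 kb from the start site.

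In hippocampus at week 24, 3 of the 10 genes had a window, with 2.43% of all coding genes and 9.11% of those of at least 100 kb as background. The window inside Ephb1, a receptor that guides retinal axons at the optic chiasm and is present at hippocampal synapses, had the largest absolute difference of the 949 windows of this list. The authors' deposited table gives it as 40.8 points (p = 6.41e-11, adjusted p = 2.49e-05) at chr9:102295001-102296000. The next window of the list in the authors' deposited table stood at 38.9 points. Among the hippocampal windows of all 3 ages 0 were larger, and among all 8961 windows 2 were. By adjusted p it ranked 4 in its list. It lies 59.2 kb downstream of the start site. The noncoding genes Gm51736 and Mir7243 are also within 10 kb of it, 8.36 and 8.92 kb away.

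Windows at the other 2 genes of hippocampus at week 24 were lower. In the authors' deposited table Epha7, a receptor that shapes dendrites and spines of cortical neurons, stood at -17.6 points (adjusted p = 0.0579) at chr4:28830001-28831000, 17.4 kb downstream of its start site. Epha6 had -12.1 points (adjusted p = 0.0524) at chr16:59753001-59754000 and -13.9 points (adjusted p = 0.0710) at chr16:60154001-60155000 in the authors' deposited table. The first of these lies between both Epha6 windows of week 8, 56 kb from the higher one and 85 kb from the lower one. Over the 3 ages the 8 hippocampal windows comprised 3 higher and 5 lower, and the nearest to a start site was the Epha7 window.

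In blood at week 8, 4 of the 10 genes had a window, with 19.5% of all coding genes and 30.5% of those of at least 100 kb as background. Of their 8 windows 5 were lower, in a list where 11.1% of windows were higher. Of the 5 lower windows 4 lay at or just upstream of a start site. Over the start of Epha4 the authors' deposited table gives -11.2 points (adjusted p = 0.0157) at chr1:77515001-77516000. A second Epha4 window, 2.41 kb upstream of the start site, stood at -10.8 points (adjusted p = 0.0223) at chr1:77517001-77518000 in the authors' deposited table. Over the Epha6 start site of the promoter table the authors' deposited table gives -11.3 points (adjusted p = 2.30e-05) at chr16:60605001-60606000. The annotated Epha6 gene body begins further upstream, at -5.38 kb from this start site, so the window lies inside the gene. Over the start of Ephb2 the authors' deposited table gives -10.6 points (adjusted p = 0.000183) at chr4:136836001-136837000. Ephb2 encodes a receptor that binds NMDA receptors at excitatory synapses. These 3 promoter windows were alike in size, with a range of 0.684 points. Noncoding genes lie close to them as well. All 1000 bases of the Ephb2 window are also inside the lncRNA gene Gm31536, the lncRNA gene Gm9017 is 0.716 kb from the Epha6 window, and Gm32793 is 6.19 kb from the Epha4 window over the start.

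The promoter sequence of 3 of the 10 genes was thus overlapped by a lower window, where 7.8% of 17274 coding genes with a promoter sequence were overlapped by a lower one in this list, and 0.00579% by a higher one. In the other 5 lists lower windows overlapped between 0% and 0.145% of these promoters, and none of the 10 genes was among them. Within 3 kb of the start site, a distance set after the values were seen, lay 4 of the 8 blood windows of these genes and 0 of the 8 hippocampal ones. For the whole lists these shares were 39.7% in blood at week 8 and 4.85% to 5.96% in hippocampus. At these small counts the shares within 3 kb in the Eph genes lay near those of their lists. Neither these shares nor those of overlapped promoters were tested.

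Other blood windows at week 8 lay inside the genes, away from the start. In Epha6 the authors' deposited table gives 27.5 points (adjusted p = 0.0119) at chr16:60555001-60556000, 50 kb downstream of the start site. This window ranked 7 among the 502 higher windows of the list and 23 among all 4526. A pair of small differences of opposite sign lay 11 kb apart further along Epha6, 563 and 552 kb from the start site. The authors' deposited table gives -10.2 points (adjusted p = 0.0940) at chr16:60042001-60043000 and 10.4 points (adjusted p = 0.0185) at chr16:60053001-60054000. In absolute size this pair ranked 4128 and 3830 among the 4526 windows. Ephb1 had 10.2 points (adjusted p = 0.0619) at chr9:102006001-102007000 in the authors' deposited table, 289 kb from its hippocampal window of week 24 and higher like it. Blood at week 3 had 0 of 10 genes with a window, with 2.79% of all coding genes and 10.8% of those of at least 100 kb as background. Blood at week 24 likewise had 0 of 10, with 1.25% and 5.27%.

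**Figure D2:**
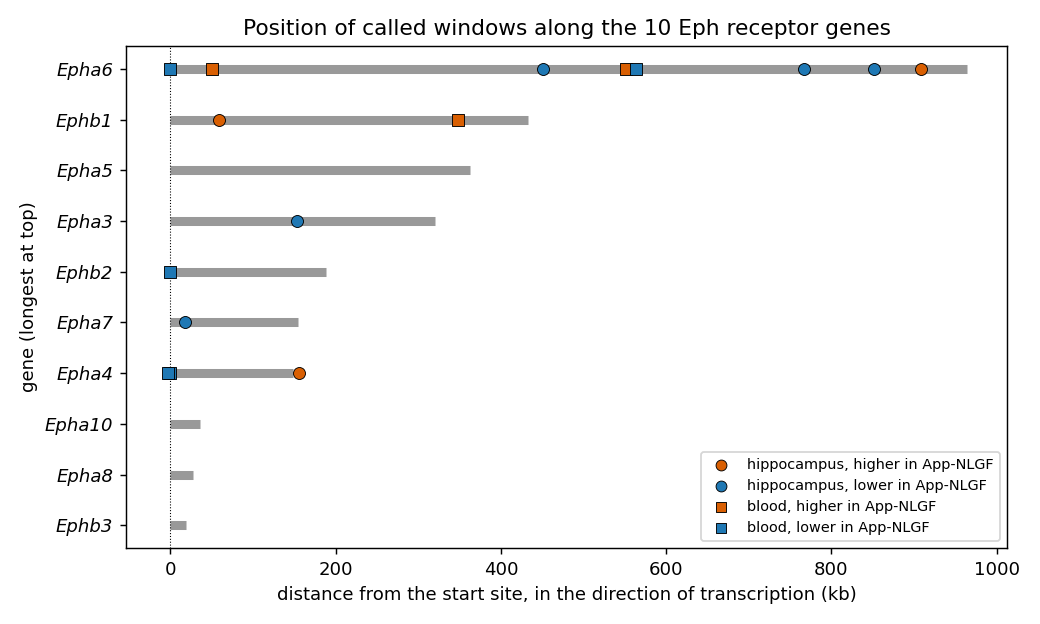
Position of each called window along the 10 Eph receptor genes, as the distance of its centre from the start site in kb in the direction of transcription (grey bars, gene bodies; circles, hippocampus; squares, blood; orange, higher and blue, lower in App-NLGF). The blood windows at the start sites of Epha6, Ephb2 and Epha4 are all lower, and the nearest hippocampal window lies 17.4 kb into Epha7. The Epha6 gene body begins upstream of the start site used, at -5.38 kb.

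Epha6 was the longest of the 10 genes at 969 kb and the one with windows in the most comparisons, 3 of 6, of which week 8 was shared by both tissues. Its 8 windows, 3 higher and 5 lower, ran from the start site to 908 kb downstream, so no single direction describes the gene. Per length it had 0.809 windows per 100 kb with flanks, against 1.79 in Epha4, 0.573 in Epha7, 0.479 in Ephb2, 0.442 in Ephb1 and 0.294 in Epha3. The Epha4 value counts separately 2 windows that lie 2 kb apart in blood at week 8. Of 498 coding genes of 300 to 1000 kb only Epha6 and Etl4 had 8 or more windows, and the mean was 1.45. Epha6 lies near the upper limit of this class, and the cut-off of 8 is its own count. Of the 59 coding genes of at least 1000 kb, 5 (8.47%) had 8 or more windows, and the mean was 3.63. Epha5, a receptor of hippocampal and septal axons with 363 kb, had 0 windows, although 72.5% of coding genes of 300 to 1000 kb had at least 1.

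The 3 shortest genes had 0 windows as well. These were Epha10 (36.3 kb), which encodes a receptor without kinase activity, Epha8 (27.4 kb), a receptor of midbrain axons, and Ephb3 (18.7 kb), which acts with Ephb2 in the corpus callosum. Of coding genes of 10 to 30 kb 24.4% had a window, and of those of 30 to 100 kb 28.8%. Over the 6 lists together the 10 genes with their flanks held 5.60 windows per Mb, and all coding genes held 5.01. In hippocampus alone the density was higher in the Eph genes at each age, with 0.699, 0.699 and 1.40 windows per Mb at weeks 3, 8 and 24 against 0.395, 0.264 and 0.372 in all coding genes. In blood at weeks 3, 8 and 24 it was lower, at 0, 2.80 and 0 against 0.423, 3.37 and 0.186. Epha6 held both hippocampal windows of week 8 and 2 of the 4 of week 24. The background was not matched for gene length. These are counts of 0 to 8 windows each.

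**Figure D3:**
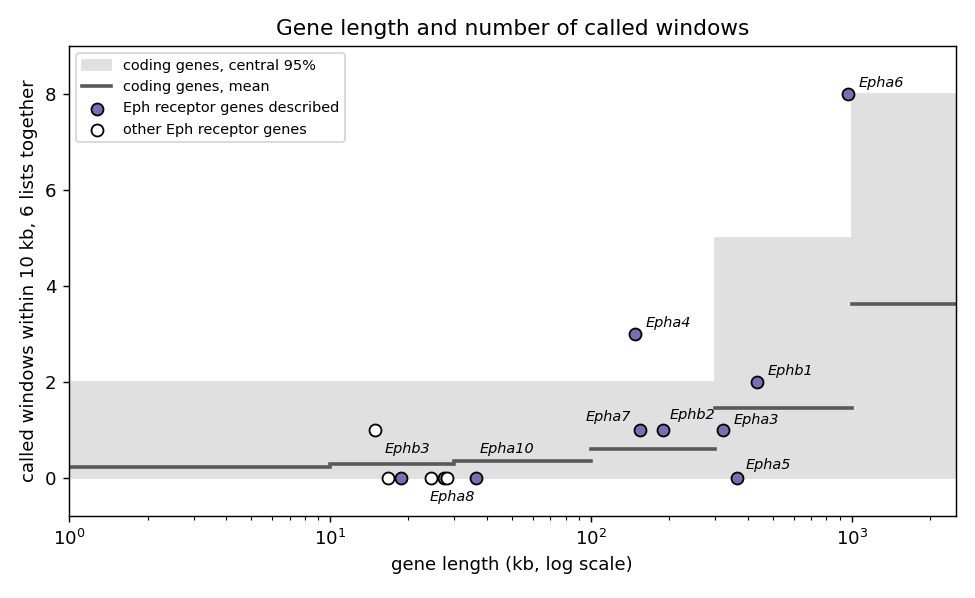
Number of called windows within 10 kb, summed over the 6 comparisons, against gene length in kb on a log scale. Filled points are the 10 Eph receptor genes and open points the other 4, grey lines give the mean and grey areas the central 95% of coding genes in 6 length classes. Epha6 with 8 windows and Epha4 with 3 lie above the grey area of their class, and Epha5 has 0. Of the 3 Epha4 windows 2 lie 2 kb apart in blood at week 8, and counted once they would put Epha4 at the upper edge of that area. Epha6 lies near the upper length limit of its class, and in the class from 1000 kb the grey area reaches 8 windows.

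The 10 kb limit fell in a gap. The outermost window counted was that of Epha4 at 7.18 kb, and the nearest one left out lay 18.4 kb from Epha8, at -12.6 points in hippocampus at week 3 in the authors' deposited table. For Ephb2 the nearest window left out lay 59.7 kb away, on the side of Epha8, at -11.7 points in blood at week 8 in the authors' deposited table. Epha3, Epha6 and Ephb3 lie on chromosome 16, which also carries App, at 21.1, 24.3 and 63.7 Mb from it. The part of linkage to App in the Epha3 and Epha6 windows was not tested.

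The 3 overlapped promoters lay within the CpG range of the other 8. The 10 genes have 11 promoter sequences in the table, since Epha7 has 2, with 14 to 56 CpGs and a median of 23. Ephb1 had 14 and Epha8 had 56, a count reached by 0.195% of all promoters, and neither was overlapped by a window. Among coding promoters, those overlapped by a lower window in blood at week 8 had a median of 22 CpGs and the others 12. The GC box letters GGGCGG or their reverse complement CCGCCC occurred in 8 of the 11 promoters, Epha4 and Epha6 among them, and in 35.7% of all. The letters CCAAT or ATTGG also occurred in 8 of 11, including Epha4, Epha6 and Ephb2, and in 37.4% of all. Both Epha7 sequences, which overlap each other, are counted in each 8. All 32851 promoters include those of noncoding genes and have a median of 7 CpGs, so they are not a matched background.

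**Figure D4:**
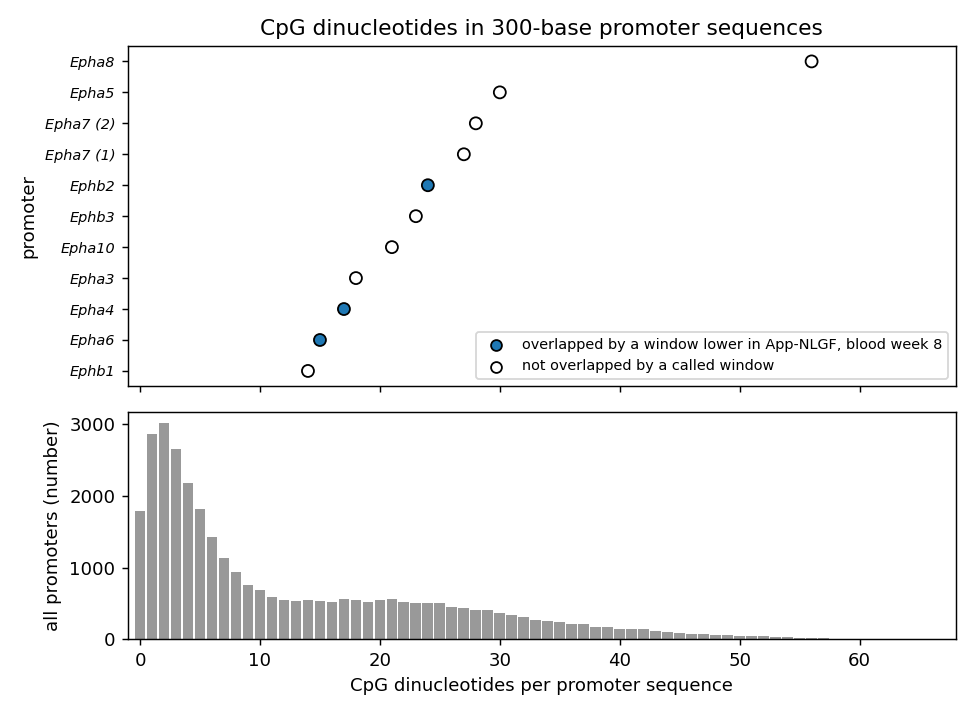
CpG dinucleotides in the 300-base promoter sequences of the 10 Eph receptor genes (upper panel, 1 point per promoter, Epha7 with 2) and in all 32851 promoters (lower panel). The overlapped promoters of Epha6, Epha4 and Ephb2 have 15, 17 and 24 CpGs, within the range of the others.

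Partners of the receptors were taken from a list of 41 genes of the same pathway. Of these, 15 (36.6%, where 26.7% of all coding genes did) had a window in at least 1 comparison, with 6 windows higher and 14 lower. Of the 41 genes 16 are at least 100 kb long and 9 of these had a window, where 51.3% of coding genes of that length did. Of the 4 other Eph receptors only Epha1 had one, 7.49 kb from the gene, at -13.1 points in blood at week 8 in the authors' deposited table. Of 8 ephrin ligands only Efnb2, which encodes the ephrin-B2 bound by EphB receptors and EphA4, had one. It lay over the whole promoter sequence, at -11.0 points (adjusted p = 0.00396) in blood at week 8 in the authors' deposited table.

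Of 26 signalling and adaptor genes 12 (46.2%) had a window, 6 windows higher and 11 lower in all, with 26.7% of all coding genes and 51.3% of those of at least 100 kb as background. Of the 26 genes 14 are at least 100 kb long, and 9 of the 12 with a window were among these. In hippocampus at week 3 there were 3 genes (11.5%, background 2.6% and, from 100 kb, 9.39%) with 3 lower windows, among them Anks1, an adaptor of Eph receptors, at -15.7 points (adjusted p = 0.00517) in the authors' deposited table. Kalrn, an exchange factor of dendritic spines, was lower in 3 comparisons in the authors' deposited table, at -13.6 points in hippocampus at week 3, -14.3 points in hippocampus at week 24 and -10.4 points in blood at week 3. These 3 windows span 34 kb, and the gene lies on chromosome 16 at 50.4 Mb from App. In hippocampus at week 8, 2 genes (7.69%, background 1.74% and, from 100 kb, 7.66%) had higher windows, at Arhgef15 (13.3 points) and at Vav2 (11.8 points) in the authors' deposited table, both exchange factors downstream of Eph receptors. Vav2 also had a lower window in blood at week 8, at -11.9 points (adjusted p = 0.0633) in the authors' deposited table, so it had no single direction. In hippocampus at week 24 the 2 genes with a window (7.69%, background 2.43% and, from 100 kb, 9.11%) were Kalrn and Fyn. Fyn, a Src-family kinase that Eph receptors recruit, stood at -15.6 points (adjusted p = 0.0979) there in the authors' deposited table. In blood at week 3, again 2 genes had one (7.69%, background 2.79% and, from 100 kb, 10.8%), Kalrn and Anks1b. Anks1b had 3 higher windows, of which the authors' deposited table gives the largest as 17.0 points. In blood at week 24 the 1 gene with a window (3.85%, background 1.25% and, from 100 kb, 5.27%) was Grip1, a scaffold that binds Eph receptors and ephrin-B, which the authors' deposited table gives as 12.0 points.

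In blood at week 8 8 of the 41 genes (19.5%) had a window, a share equal to the 19.5% of all coding genes. All 8 windows were lower, in a list where 11.1% of windows were higher. The exchange factor Tiam1 stood at -13.9 points (adjusted p = 5.78e-05) in the authors' deposited table. It lies on chromosome 16, 4.61 Mb from App, and the part of linkage in its window, and in those of Kalrn, was not tested. Of the 3 cleavage and turnover genes only Cbl, a ubiquitin ligase, had a window. It lay 7.98 kb outside the gene, and the authors' deposited table gives -10.2 points. Adam10, a protease that cuts ephrins and also amyloid precursor protein, had 0 windows in the 6 lists.

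By the state of each of the 6 comparisons (no window, higher only, lower only or both), the coding genes most like Epha6 were Galntl6, Ulk4 and Zfp536, each with the same state in 5 of 6. They shared lower windows in hippocampus at week 24 and windows of both signs in blood at week 8, and lacked windows in hippocampus at week 8. Of the coding genes with a window, 219 reached 4 of 6 and 0 matched in all 6.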

How the data were processed

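Reads were handled with FastQC, Trim Galore, Bismark and methylKit on mm10, per the submitters' processing notes. Tool versions, the test statistic, any coverage filter and how p was adjusted were not given in the sources used here. Sex was a covariate in each comparison of genotypes, per the series' design text. The deposited table holds the authors' p-value, adjusted p-value and methylation difference in percentage points for each called 1 kb window. Its brain and T labels were read as hippocampus and postnatal week. It has 0 columns of single libraries.

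Windows were assigned with Python 3.11.15 and pandas 2.3.3 to gene bodies of the GRCm38.p6 gene table extended by 10 kb, a step tested on simulated data. GRCm38.p6 has the coordinates of mm10. Start sites and strands came from the RefSeq promoter table, where all 10 genes matched by symbol. Shares of all coding genes with a window served as background, and no test was run. Exons, introns and window sequences were not used here. Every window of the 10 genes is named, pathway genes mostly by their largest differences, and up to 5 genes by likeness to the gene with windows in the most lists. A gene these rules name that is missing from the text is not reported here. The genes, lists and rules were chosen with earlier results of these data known. Alternatives changed the 10 kb limit, tightened the authors' thresholds, left out windows at gene ends or merged neighbours.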

Additional observations from a re-analysis of the deposited data

How the results depend on the processing

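The counts of windows and of Eph receptor genes with a window were recomputed under 7 alternatives, 9 counts each, and 50 of the 63 stayed within 1.5 times the count reported. These include the counts of 0 genes in blood at weeks 3 and 24. Only the 20 kb limit could have changed those, since every other alternative removes or merges windows. Counting gene bodies alone left 1 gene in hippocampus at week 3 in place of 2. With an adjusted p under 0.01 there were 3 windows, 1 higher and 2 lower, and the genes with a window numbered 0 in hippocampus at week 3, 0 at week 8, 1 at week 24 and 2 in blood at week 8. With at least 15 percentage points there were 5 windows, 3 higher and 2 lower, with 1 gene in hippocampus at week 3 and 1 in blood at week 8, so lower windows no longer outnumbered higher ones. These 2 settings keep fewer windows by construction. A 20 kb limit, merged neighbours, and leaving out windows within 1 kb of gene ends or, added after the data were seen, over promoter sequences moved no count beyond 1.5 times. No paired analysis was possible because no values per library were used here. Leaving out single libraries could not be done for the same reason.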
